A study of Homo sapiens with 6 samples.

Results

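The genes of lower glycolysis and lactate dehydrogenase were followed in MDA-MB-231 cells after knockdown of PHF20L1. They are ALDOA, TPI1, GAPDH, PGK1, PGAM1, ENO1, ENO2, PKM, LDHA and LDHB, chosen by symbol as the genes in use from aldolase to lactate dehydrogenase. All 10 were found among the 17452 genes listed. MDA-MB-231 is a human line from a triple-negative breast tumour, kept here in L-15 medium with 10% serum without CO2. In the knockdown group, 3 libraries came from cells that received siRNA against PHF20L1 (siPHF20L1), and the other 3 libraries carry the label siControl. The protocol offers a choice of Lipofectamine reagents, with no word on which served which library, and siRNA sequences and harvest time are not given in the labels. Separate cultures are not stated either, so p-values cover only the spread among these libraries, and that spread may be technical.

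Glycolysis splits glucose into pyruvate in the cytosol. In its lower part aldolase cuts fructose bisphosphate into trioses, triose phosphate isomerase joins these into a single stream, and the steps from GAPDH to pyruvate kinase yield NADH and ATP. Lactate dehydrogenase then turns pyruvate into lactate and restores the NAD+ that GAPDH needs. Tumour cells often run this route at a high rate even with oxygen present, and several of its genes are known targets of HIF-1 and MYC.

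Values are FPKM as deposited, fragments per transcript length and sequenced library, meant to let levels of different genes be set side by side. The length used for each gene is not given, so comparisons of level between genes are uncertain. Differences are on the log2(FPKM + 1) scale, siPHF20L1 minus siControl, from limma with Benjamini-Hochberg adjustment over the 11560 genes with at least 1 FPKM in at least 3 libraries, and a gene passed at an adjusted p under 0.05. PHF20L1 itself was at 18.8% of its siControl level (log2 difference -2.03, limma, adjusted p = 1.46e-06), with every library on the side of its label. The steps of the lowest FPKM put the depth at 17000000 to 17500000 fragments per library, and fewer if the true step is some whole multiple of it. In both groups the library numbered 1 stood apart from the numbers 2 and 3, on a second principal component with 10.2% of the variance. Of 5 markers that should be high in this line, 3 fell, VIM (log2 difference -0.68), AXL (-0.97) and CAV1 (-0.36), with limma adjusted p of 2.86e-05, 2.45e-06 and 0.000364. The list summed to 1906 to 1946 FPKM in siPHF20L1 and 2802 to 2837 FPKM in siControl libraries. CD44 and MSN did not pass (limma, adjusted p = 0.865 and 0.632). Of 5 markers that should be low or absent, ESR1 was listed at 0 in all 6 libraries, while EPCAM and ERBB2 rose. CDH1 averaged 0.383 FPKM in siPHF20L1 and 0.363 FPKM in siControl libraries, and PGR at most 0.0367 FPKM in either group. Neither CDH1 nor PGR was tested. EPCAM was at 4.31 ± 0.796 FPKM in siPHF20L1 and 2.20 ± 0.161 FPKM in siControl libraries (log2 difference 0.72, limma, adjusted p = 0.000670), and ERBB2 at 30.8 ± 1.08 FPKM in siPHF20L1 and 25.9 ± 0.0755 FPKM in siControl libraries (log2 difference 0.24, limma, adjusted p = 0.00444). Of 7 markers of leukocytes, endothelium and fibroblasts, the sum, mostly CD68, was 58.0 to 63.4 FPKM in siPHF20L1 and 64.6 to 65.7 FPKM in siControl libraries. Among them the fibroblast marker PDGFRB was higher, at 1.88 FPKM in siPHF20L1 and 1.39 FPKM in siControl libraries on average, and COL1A1 lower, at 4.67 FPKM in siPHF20L1 and 5.72 FPKM in siControl libraries (limma, adjusted p = 0.0259 and 0.0332). CD3E and CDH5 averaged at most 0.0133 FPKM. The part of these marker changes in the results was not tested. In such bulk RNA, fewer cells with a transcript and less of it per cell cannot be told apart.

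All 10 genes had a lower mean in siPHF20L1 libraries, and 8 of them fell beyond the threshold: ALDOA, TPI1, GAPDH, PGK1, ENO1, PKM, LDHA and LDHB. PGAM1 and ENO2 did not pass, and none of the 10 rose. The same rule called 24.7% of all genes tested lower and 34.0% higher, 58.6% in either direction. That balance turned with the scaling: 3926 genes were higher and 2851 lower as deposited, 3354 higher and 3495 lower with quantile normalization and 3318 higher and 3540 lower with median-ratio size factors. Among the 747 tested genes with a mean of at least 90 FPKM, a bound set after the values were seen so that all 10 genes lie above it, 33.7% were called lower and 21.3% higher. The median log2 difference of the 10 genes was -0.52, against 0.05 over all genes tested and -0.08 over the abundant ones. A fall of at least 0.5 on the log2 scale was seen in 6 of the 10, TPI1, GAPDH, PGK1, ENO1, PKM and LDHA, against 9.14% of all genes tested and 10.2% of the abundant ones. With quantile normalization that count was 3, LDHA, TPI1 and PGK1, and the median of the 10 was -0.29. In 9 of the 10, PGAM1 being the exception, every siPHF20L1 library lay below every siControl library. That held for 27.0% of all genes tested, and the opposite for 36.7%.

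**Figure D1:**
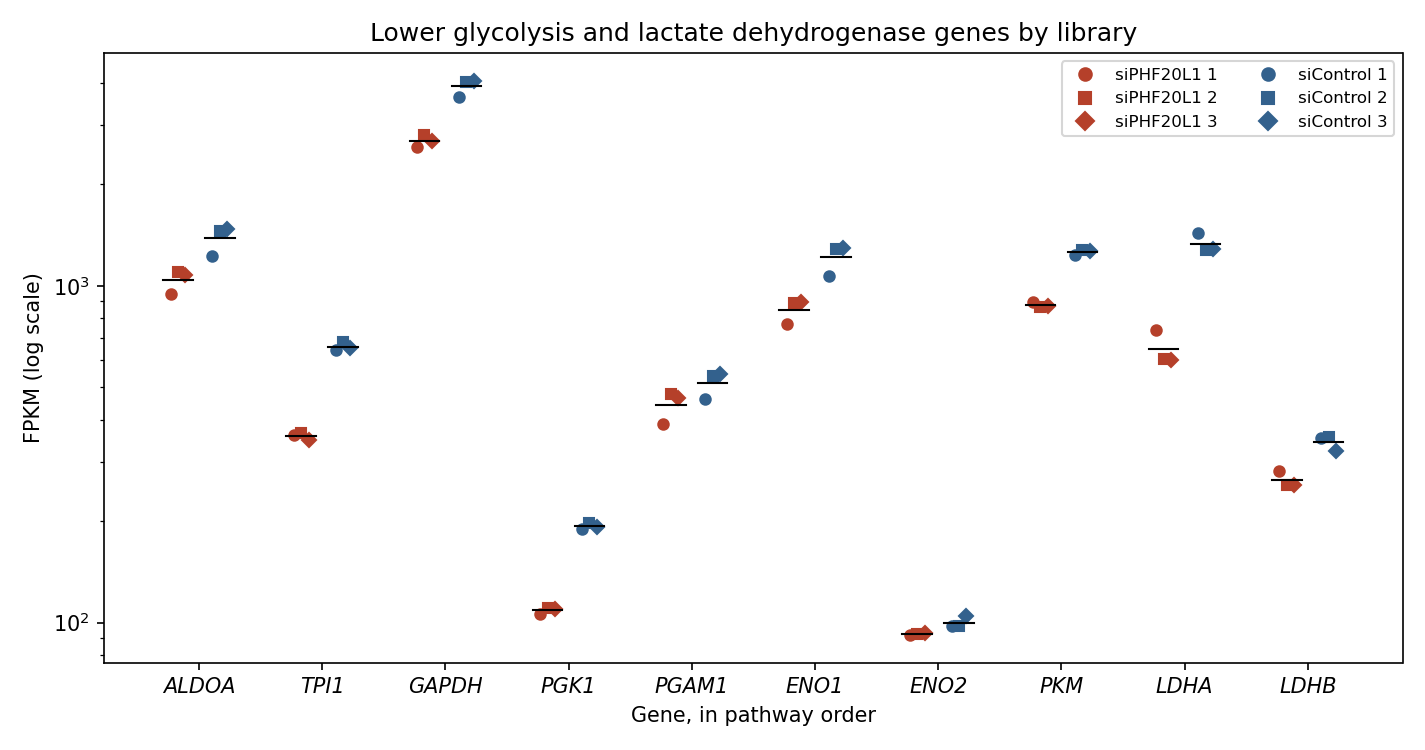
FPKM (log axis) of the 10 genes in each of the 6 libraries, siPHF20L1 left in red and siControl right in blue, with marker shapes for the replicate numbers and a line at each group mean. The groups stand apart in every gene except PGAM1, and the mean of LDHA is 649 FPKM in siPHF20L1 and 1331 FPKM in siControl libraries.

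The promoters of the 3 genes with the largest falls, LDHA, PGK1 and TPI1, are shown with those of PGAM1 and ENO2, which did not pass, because the core motif of HIF-1 can be read from their letters. They are RefSeq windows on GRCh38.p14, from 250 bases before to 50 after an annotated start, all on the plus strand: LDHA chr11:18394313-18394612, PGK1 chrX:78103998-78104297, TPI1 chr12:6867855-6868154, PGAM1 chr10:97427568-97427867 and ENO2 chr12:6914330-6914629. Capitals mark ACGTG or GCGTG on either strand.
LDHA: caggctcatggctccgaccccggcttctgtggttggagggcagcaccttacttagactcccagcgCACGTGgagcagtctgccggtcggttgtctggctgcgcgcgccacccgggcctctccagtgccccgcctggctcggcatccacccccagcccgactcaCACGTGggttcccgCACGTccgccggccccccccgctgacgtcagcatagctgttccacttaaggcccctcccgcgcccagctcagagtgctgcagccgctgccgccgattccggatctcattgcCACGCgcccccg
PGK1: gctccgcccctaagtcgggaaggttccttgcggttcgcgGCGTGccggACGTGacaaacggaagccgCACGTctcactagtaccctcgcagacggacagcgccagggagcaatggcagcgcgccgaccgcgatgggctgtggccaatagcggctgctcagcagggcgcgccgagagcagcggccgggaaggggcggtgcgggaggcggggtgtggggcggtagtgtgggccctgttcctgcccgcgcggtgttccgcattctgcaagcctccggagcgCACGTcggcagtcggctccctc
TPI1: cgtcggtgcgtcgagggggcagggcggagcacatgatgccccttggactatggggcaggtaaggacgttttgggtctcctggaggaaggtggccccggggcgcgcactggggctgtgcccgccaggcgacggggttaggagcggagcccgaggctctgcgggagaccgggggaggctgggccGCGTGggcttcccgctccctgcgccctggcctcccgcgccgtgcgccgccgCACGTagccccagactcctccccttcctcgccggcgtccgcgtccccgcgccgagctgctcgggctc
PGAM1: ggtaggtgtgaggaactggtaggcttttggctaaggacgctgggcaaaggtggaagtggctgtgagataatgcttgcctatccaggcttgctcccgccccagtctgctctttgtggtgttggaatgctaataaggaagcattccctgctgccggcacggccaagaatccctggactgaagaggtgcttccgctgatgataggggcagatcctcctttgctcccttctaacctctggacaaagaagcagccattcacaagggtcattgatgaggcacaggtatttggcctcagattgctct
ENO2: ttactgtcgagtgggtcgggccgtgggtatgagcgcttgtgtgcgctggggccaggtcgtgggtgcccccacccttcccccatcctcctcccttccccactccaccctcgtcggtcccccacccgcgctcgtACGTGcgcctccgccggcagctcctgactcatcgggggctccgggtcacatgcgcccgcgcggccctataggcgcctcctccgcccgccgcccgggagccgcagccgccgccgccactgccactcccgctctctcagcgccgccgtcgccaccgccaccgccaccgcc

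The LDHA window holds 6 matches, 5 of ACGTG and 1 of GCGTG. Among them are 2 E-boxes CACGTG, the motif of MYC, each of which holds ACGTG on both strands and so counts as 2 matches. PGK1 has 4 matches, TPI1 has 2 in this window and 0 in its other one, PGAM1 has 0 and ENO2 has 1. For LDHA and TPI1 the window shown is that with more matches, a choice that favours matches in these genes. Which start these cells use was not measured. Of the genes not shown, all of which passed, GAPDH and ENO1 have 2 matches each, PKM and LDHB 1 each, and ALDOA at most 2 in a window. The other LDHA window has 1, and PGAM1 is the only one of the 10 genes with no match in any window searched. For PGAM1 only the window shown was searched, so the absence holds for that window and not for any other PGAM1 start. At least 4 matches in 1 window were found for LDHA and PGK1, 2 of the 10 genes, against 9.29% of 9543 tested genes with a window. That bound equals the count of PGK1 itself, so the comparison is no separate support. At least 1 was found for 9 of the 10, against 70.9% of tested genes and 48.4% of all 35116 windows. All motifs were read on both strands. The E-box stood in a window of ALDOA, GAPDH and LDHA, against 12.8% of tested genes and 7.26% of all windows. The GC box GGGCGG stood in a window of all 10, against 78.7% and 45.0%. CCAAT, read by NF-Y, was found for 4 of the 10, against 43.3% and 34.6%, and TATAAA for LDHB alone, against 7.83% and 11.5%. GC content was 70.00% in the LDHA, 70.7% in the PGK1 and 75.0% in the TPI1 window shown. It was 53.3% in the PGAM1 and 75.0% in the ENO2 window, beside a median of 65.0% for tested genes. A match is a run of letters, not a measured site.

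**Figure D2:**
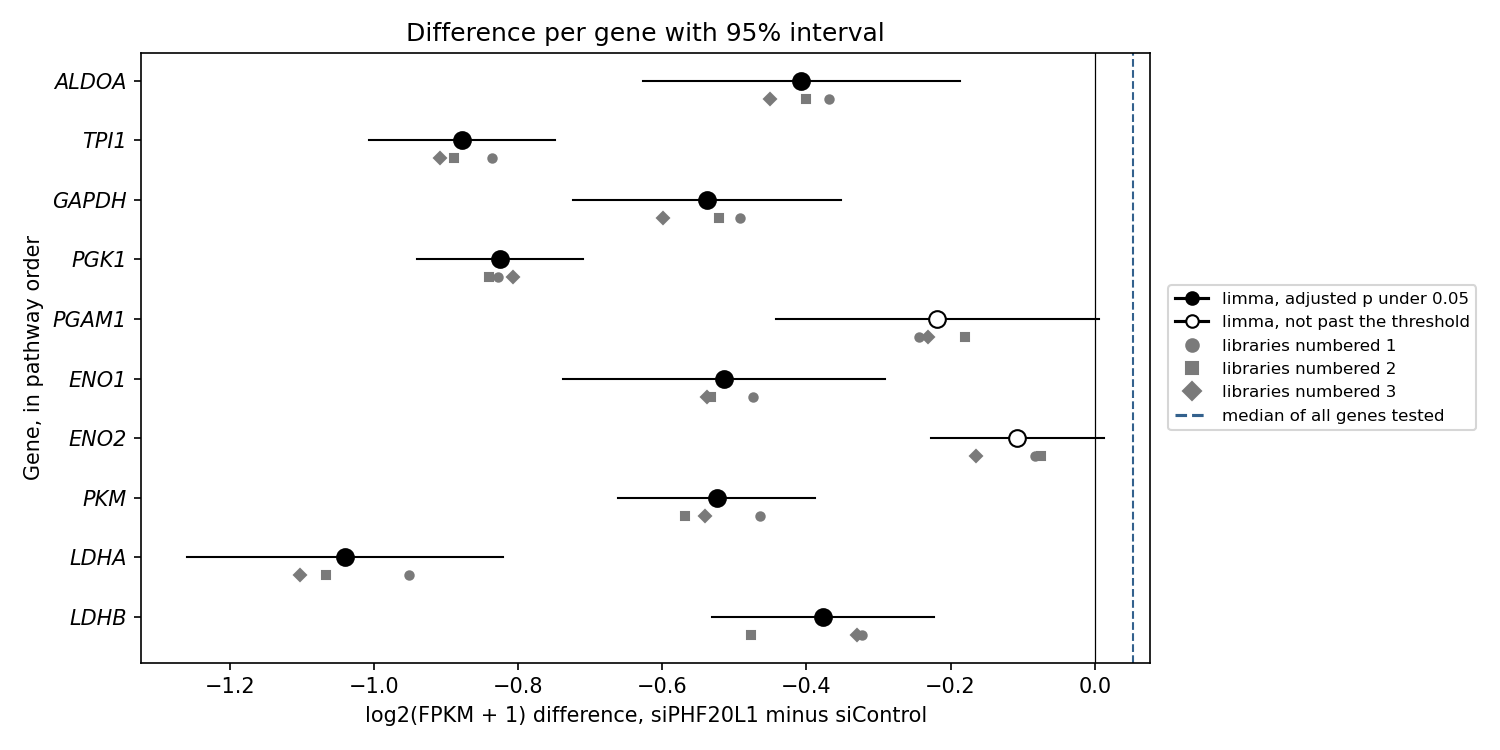
Log2(FPKM + 1) difference, siPHF20L1 minus siControl, of each gene in pathway order, with its 95% interval from limma (filled circles past the threshold, open circles not); grey markers are differences between same-numbered libraries, and the dashed line is the median of all genes tested at 0.05. LDHA, TPI1 and PGK1 lie farthest to the left, and PGAM1 and ENO2 nearest to 0.

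ALDOA (Entrez 226) encodes aldolase A, which cuts fructose bisphosphate into a pair of trioses. It was at 946, 1099 and 1079 FPKM in siPHF20L1 libraries and at 1222, 1451 and 1476 FPKM in siControl libraries. The groups did not overlap, and the library numbered 1 was the lowest of each. Its mean log2 difference of -0.41 passed (SE 0.10, limma, adjusted p = 0.00625), with -0.37 within the number 1 and -0.43 within the numbers 2 and 3. It was -0.17 with quantile normalization (limma, adjusted p = 0.0201), and it did not pass with the libraries numbered 2 and 3 of each group averaged (limma, adjusted p = 0.0559).

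TPI1 (Entrez 7167) encodes triose phosphate isomerase, which interconverts the products of aldolase. It was at 359.9, 367 and 348 FPKM in siPHF20L1 libraries and at 643, 679.9 and 655 FPKM in siControl libraries. Replicates lay close together and the groups far apart, the knockdown level being 54.3% of the siControl level. Limma gave a log2 difference of -0.88 (SE 0.06, adjusted p = 5.35e-06), with -0.84 within the number 1 and -0.90 within the numbers 2 and 3.

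GAPDH (Entrez 2597) encodes the enzyme that oxidises glyceraldehyde 3-phosphate and makes NADH. It was at 2585, 2799 and 2681 FPKM in siPHF20L1 libraries and at 3639, 4019 and 4062 FPKM in siControl libraries. The groups did not overlap, and the knockdown level was 68.8% of the siControl level. The groups differed by -0.54 on the log2 scale (SE 0.08, limma, adjusted p = 0.000574), with -0.49 and -0.56 within the number 1 and within the numbers 2 and 3. GAPDH has many processed copies in the genome, as do several of these genes, so that reads shared with such copies make its level uncertain.

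PGK1 (Entrez 5230) encodes phosphoglycerate kinase, which makes the first ATP of the lower pathway. It was at 106, 110.2 and 109 FPKM in siPHF20L1 libraries and at 189, 198 and 192 FPKM in siControl libraries. No library stood apart within either group, and the knockdown level was 56.2% of the siControl level. The difference came to -0.82 on the log2 scale (SE 0.05, limma, adjusted p = 4.06e-06), with -0.83 within the number 1 and -0.82 within the numbers 2 and 3. If the estimated depth holds, 8800 to 16600 fragments stood behind each value, a counting error of at most 1.06%.

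PGAM1 (Entrez 5223) encodes phosphoglycerate mutase, which moves the phosphate group within phosphoglycerate. It was at 389, 476 and 465 FPKM in siPHF20L1 libraries and at 461, 539.6 and 546 FPKM in siControl libraries. The groups overlapped, since the siControl library numbered 1 lay below the siPHF20L1 libraries numbered 2 and 3. The log2 difference of -0.22 (95% interval -0.44 to 0.01) did not pass (limma, adjusted p = 0.0852). It passed when the replicate numbers entered as a block (limma, adjusted p = 0.000274), each siPHF20L1 library being below the siControl library of its number. The difference shrank to -0.13 without siPHF20L1 replicate 1 and to -0.12 with quantile normalization (limma, adjusted p = 0.226 and 0.180). The near-identical retrocopy PGAM4 averaged 0.103 FPKM in siPHF20L1 and 0.0433 FPKM in siControl libraries.

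ENO1 (Entrez 2023) encodes alpha-enolase, which makes phosphoenolpyruvate. It was at 769, 888 and 893 FPKM in siPHF20L1 libraries and at 1069, 1284 and 1296 FPKM in siControl libraries. As with ALDOA, the groups did not overlap and the number 1 was the lowest of each. Limma gave a log2 difference of -0.51 (SE 0.10, adjusted p = 0.00197), with -0.47 within the number 1 and -0.53 within the numbers 2 and 3, and -0.29 with quantile normalization (adjusted p = 0.00364).

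ENO2 (Entrez 2026) encodes gamma-enolase, known from neurons and neuroendocrine tumours. It was at 91.9, 92.8 and 93.3 FPKM in siPHF20L1 libraries and at 97.4, 97.7 and 105 FPKM in siControl libraries. The groups did not overlap, but little separated the lowest siControl library from the highest siPHF20L1 library. The log2 difference of -0.11 (95% interval -0.23 to 0.01) did not pass (limma, adjusted p = 0.111), while it did with the replicate block (limma, adjusted p = 0.0129). An estimated 3800 to 4400 fragments stood behind each value, a counting error of at most 1.62%.

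PKM (Entrez 5315) encodes the pyruvate kinase of most tissues, whose M1 and M2 forms differ by the choice of a single exon. It was at 894, 863 and 872 FPKM in siPHF20L1 libraries and at 1234, 1281 and 1269 FPKM in siControl libraries. Replicates were close in both groups, and the knockdown level was 69.5% of the siControl level. The groups differed by -0.52 on the log2 scale (SE 0.06, limma, adjusted p = 0.000115), with -0.46 within the number 1 and -0.55 within the numbers 2 and 3, and -0.30 with quantile normalization (adjusted p = 0.00441). With 1 value per gene, the M1 and M2 forms were not told apart.

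LDHA (Entrez 3939) encodes the A, or muscle, subunit of lactate dehydrogenase, which favours lactate. It was at 741, 607 and 600.0 FPKM in siPHF20L1 libraries and at 1432, 1272 and 1289 FPKM in siControl libraries. Its fall was the largest of the 10 genes, 2.05-fold, and unlike ALDOA and ENO1 it was highest in the library numbered 1 of each group. The difference came to -1.04 on the log2 scale (SE 0.10, limma, adjusted p = 3.51e-05), with -0.95 within the number 1 and -1.08 within the numbers 2 and 3.

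LDHB (Entrez 3945) encodes the B, or heart, subunit, which favours pyruvate. It was at 283, 256 and 256 FPKM in siPHF20L1 libraries and at 354, 356 and 323 FPKM in siControl libraries. The groups did not overlap, and the siControl library numbered 3 lay nearest to the siPHF20L1 libraries. Limma gave a log2 difference of -0.38 (SE 0.07, adjusted p = 0.00142), with -0.32 within the number 1 and -0.40 within the numbers 2 and 3, and -0.25 with quantile normalization (adjusted p = 0.0215).

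The transcript shares of the paired enzymes were compared next, which says nothing of the proteins. A and B subunits combine freely into the tetramers of lactate dehydrogenase. LDHA made up 72.4%, 70.4% and 70.1% in siPHF20L1 libraries and 80.2%, 78.1% and 80.0% in siControl libraries, of the FPKM of both genes. Every siPHF20L1 library lay below every siControl library, with a difference of -8.50 percentage points (exact permutation test, two-sided, p = 0.1, the smallest that 3 against 3 libraries allow). The ratio of LDHA to LDHB was 2.44 ± 0.153 in siPHF20L1 and 3.87 ± 0.261 in siControl libraries (SD, n = 3 each). Their sum was 914 ± 94.7 FPKM in siPHF20L1 and 1676 ± 96.1 FPKM in siControl libraries (SD, n = 3 each).

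Among the enolases, the share of the minor transcript was likewise taken per library. ENO2 held 10.7%, 9.46% and 9.46% in siPHF20L1 libraries and 8.35%, 7.07% and 7.47% in siControl libraries, of the FPKM of ENO1 and ENO2. The groups did not overlap, and the difference was 2.23 percentage points (exact permutation test, two-sided, p = 0.1, the smallest possible). ENO1 was still the main form, at 9.17 ± 0.696 times the level of ENO2 in siPHF20L1 and 12.2 ± 1.10 times in siControl libraries (SD, n = 3 each). The sum of both enolases was 943 ± 70.8 FPKM in siPHF20L1 and 1316 ± 130.5 FPKM in siControl libraries (SD, n = 3 each).

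**Figure D3:**
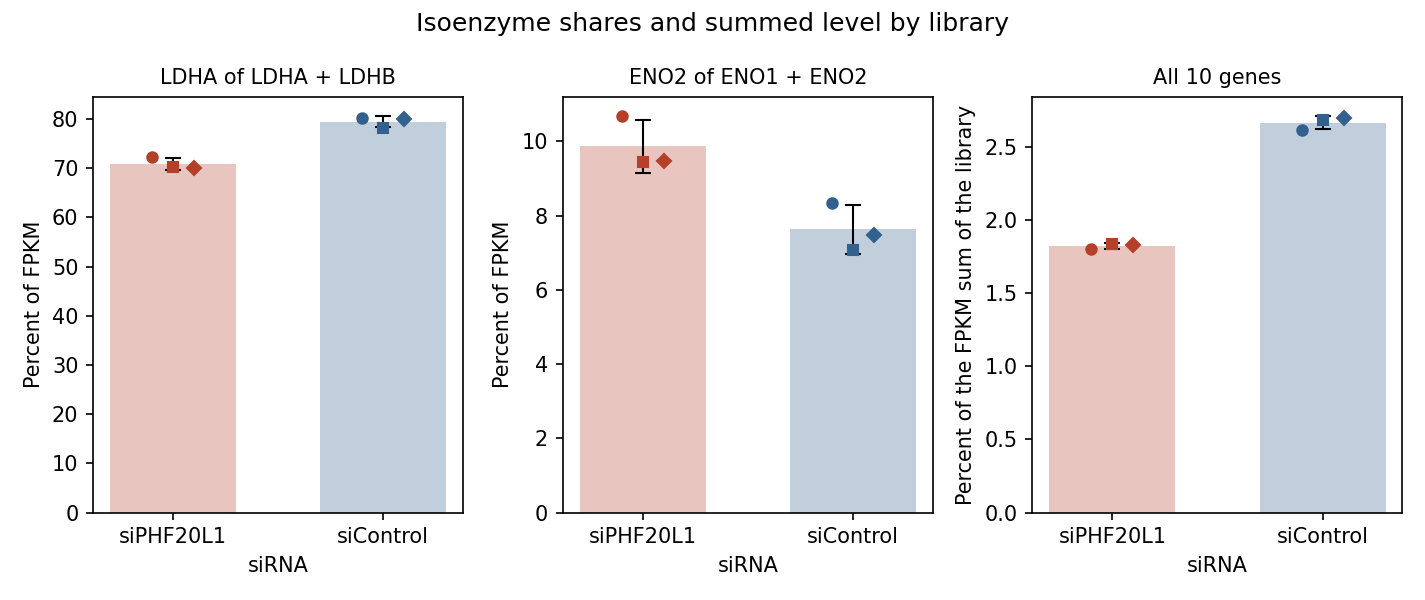
LDHA share of LDHA and LDHB, ENO2 share of ENO1 and ENO2, and the summed FPKM of the 10 genes as percent of the library sum, in siPHF20L1 (red, left) and siControl (blue, right) libraries, with bars at the mean, error bars of 1 SD (n = 3) and points for libraries. The groups do not overlap in any of these measures: LDHA shares are 70.1% to 72.4% in siPHF20L1 and 78.1% to 80.2% in siControl libraries.

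Together the 10 transcripts summed to 7164, 7557 and 7397 FPKM in siPHF20L1 libraries and 10340.2, 11179 and 11212 FPKM in siControl libraries. The groups did not overlap (exact permutation test, two-sided, p = 0.1, the smallest possible). As a share of all FPKM of the library, the sum was 1.82% ± 0.0182 in siPHF20L1 and 2.67% ± 0.0439 in siControl libraries (SD, n = 3 each). GAPDH held 36.5% ± 0.515 of it in siPHF20L1 and 35.8% ± 0.536 in siControl libraries (SD, n = 3 each); the libraries of both groups overlapped. LDHA held 8.82% ± 1.31 in siPHF20L1 and 12.2% ± 1.39 in siControl libraries, which did not overlap (SD, n = 3 each).

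The order of levels by mean ran GAPDH, ALDOA, PKM, ENO1, LDHA, PGAM1, TPI1, LDHB, PGK1 and ENO2 in siPHF20L1 libraries, where PKM and ENO1 were the only neighbours with overlapping ranges. In siControl libraries it ran GAPDH, ALDOA, LDHA, PKM, ENO1, TPI1, PGAM1, LDHB, PGK1 and ENO2, and from ALDOA to ENO1 each neighbour overlapped the next. LDHA was thus below the ranges of ALDOA, PKM and ENO1 in siPHF20L1 libraries and overlapped them in siControl libraries. Among all 17452 genes, LDHA ranked 63 in siPHF20L1 and 20 in siControl libraries, and GAPDH ranked 5 in siPHF20L1 and 3 in siControl libraries.

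The libraries numbered 1 had a pattern of their own that both groups shared. Relative to the mean of the numbers 2 and 3, the number 1 held ALDOA at 86.8% in the siPHF20L1 and 83.5% in the siControl group. PGAM1 was at 82.7% in the siPHF20L1 and 84.9% in the siControl group, and ENO1 at 86.4% in the siPHF20L1 and 82.8% in the siControl group. LDHA went the other way, at 123% in the siPHF20L1 and 112% in the siControl group, while TPI1, PGK1, ENO2 and PKM stayed between 96.2% and 103% in both. The labels do not say what sets the number 1 apart, and its part in the differences was not tested. Each of the 10 genes was lower in siPHF20L1 in all 3 comparisons of same-numbered libraries.

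Paralogs known from particular tissues stayed at low levels. Of 13 listed, 12 were in the files, and together they summed to 16.1 to 19.4 FPKM in siPHF20L1 and 21.6 to 24.1 FPKM in siControl libraries. Only 3 had enough signal for the test. The brain aldolase gene ALDOC fell to 8.39 ± 1.20 FPKM in siPHF20L1 libraries, against 14.5 ± 0.556 FPKM in siControl libraries (log2 difference -0.73, limma, adjusted p = 0.000251). The muscle enolase gene ENO3 was at 5.38 ± 0.723 FPKM in siPHF20L1 and 5.003 ± 0.778 FPKM in siControl libraries and did not pass (log2 difference 0.09, limma, adjusted p = 0.542). PGAM2, the muscle mutase gene, was at 1.19 ± 0.161 FPKM in siPHF20L1 and 0.887 ± 0.212 FPKM in siControl libraries and did not pass (log2 difference 0.22, limma, adjusted p = 0.0983), while it did with the replicate block (limma, adjusted p = 0.0352). PKLR, the pyruvate kinase gene of liver and red cells, and LDHC, known from testis, averaged at most 0.0600 FPKM in either group.

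Upper glycolysis was mixed. Of 19 listed genes from glucose uptake to phosphofructokinase and its regulators, 15 were tested, 7 fell, 3 rose and 5 did not pass, with a median log2 difference of -0.21. With the replicate block 9 were lower and 4 higher. The glucose transporter gene SLC2A1 fell to 76.4 ± 6.60 FPKM in siPHF20L1 libraries, against 132 ± 9.38 FPKM in siControl libraries (log2 difference -0.78, limma, adjusted p = 6.39e-05). HK2, which encodes a hexokinase that many tumours raise, fell to 19.1 ± 0.0321 FPKM in siPHF20L1 libraries, against 27.3 ± 0.403 FPKM in siControl libraries (log2 difference -0.49, limma, adjusted p = 7.68e-05). Against this, PFKL, the liver-type phosphofructokinase gene, rose to 41.1 ± 6.97 FPKM in siPHF20L1 libraries, against 21.2 ± 1.72 FPKM in siControl libraries (log2 difference 0.91, limma, adjusted p = 0.000264). SLC2A3, another glucose transporter gene, had the largest difference of the list, 1.14 on the log2 scale (limma, adjusted p = 2.75e-06), in the higher direction. PFKP, the phosphofructokinase gene with the highest level, was at 138 ± 14.3 FPKM in siPHF20L1 and 159 ± 14.1 FPKM in siControl libraries and did not pass (log2 difference -0.21, limma, adjusted p = 0.0877). It passed with the replicate block (limma, adjusted p = 0.000242).

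**Figure D4:**
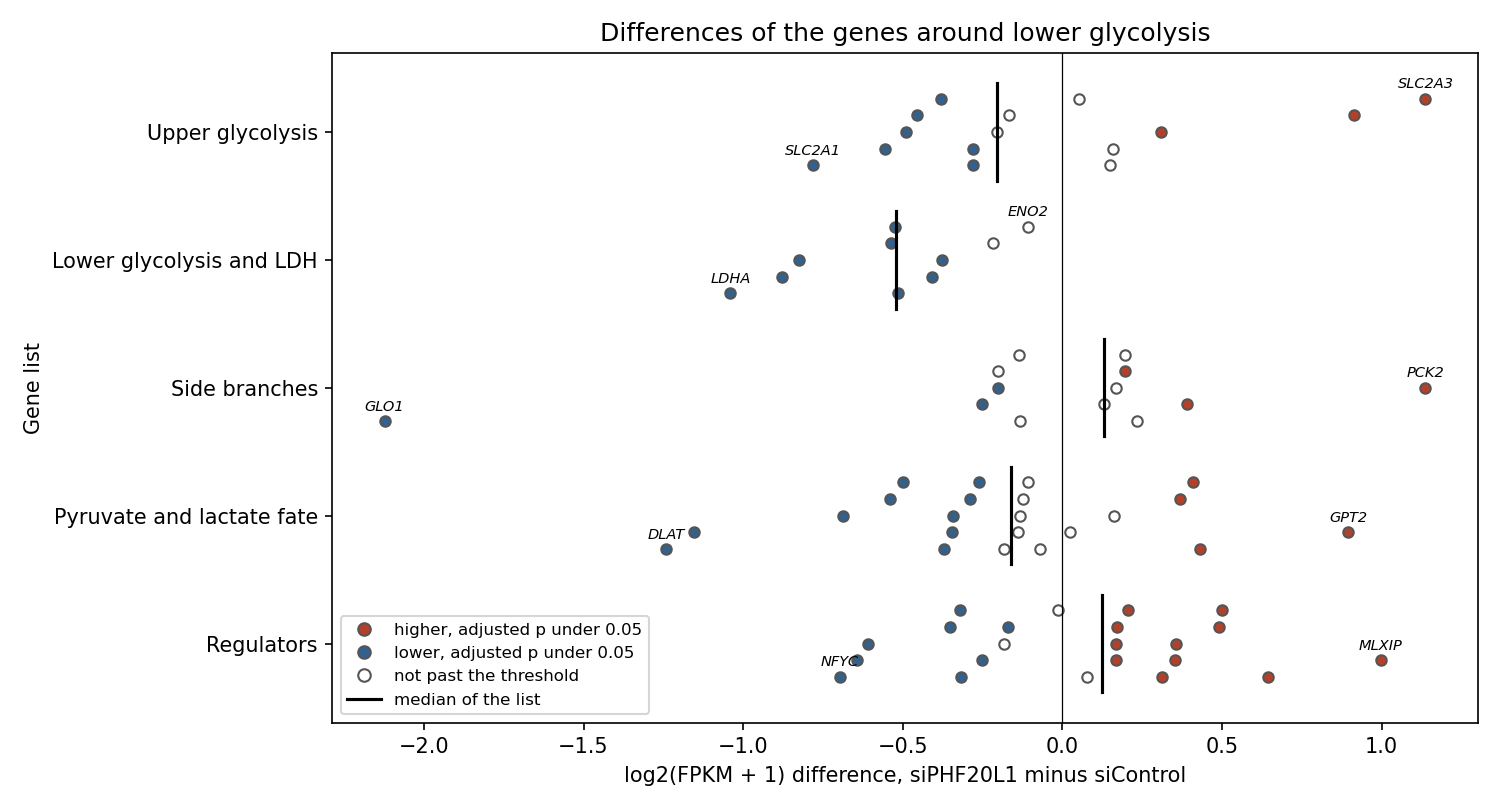
Log2(FPKM + 1) differences, siPHF20L1 minus siControl, of the tested genes of the 10-gene set and of 4 surrounding lists, with calls in red (higher) and blue (lower), open circles for genes not past the threshold and a black line at each median. The 10 genes have a median of -0.52 and no value above 0, while each of the 4 other lists has calls in both directions.

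Side branches that start from intermediates of lower glycolysis had no common direction. Of 17 genes, 13 were tested, 3 fell, 3 rose and 7 did not pass, with a median log2 difference of 0.13. GLO1, which clears the methylglyoxal that trioses shed, fell to 33.6 ± 3.27 FPKM in siPHF20L1 libraries, against 149 ± 10.8 FPKM in siControl libraries (log2 difference -2.12, limma, adjusted p = 5.66e-07). PCK2, which makes phosphoenolpyruvate in mitochondria, rose to 8.64 ± 1.28 FPKM in siPHF20L1 libraries, against 3.37 ± 0.442 FPKM in siControl libraries (log2 difference 1.14, limma, adjusted p = 6.47e-05). PSPH, the last enzyme gene of serine synthesis, rose to 16.1 ± 0.806 FPKM in siPHF20L1 libraries, against 12.02 ± 0.544 FPKM in siControl libraries (log2 difference 0.39, limma, adjusted p = 0.00107). PHGDH, which opens that branch, averaged 0.320 FPKM in siPHF20L1 and 0.197 FPKM in siControl libraries and was not tested. BPGM, the bisphosphoglycerate mutase gene, was at 7.08 ± 0.918 FPKM in siPHF20L1 and 6.02 ± 0.299 FPKM in siControl libraries and did not pass (log2 difference 0.20, limma, adjusted p = 0.0943). BPGM did pass with the replicate block (limma, adjusted p = 0.00953), which gave 6 lower and 7 higher genes in this list. The lower count was 1 in place of 3 without the filter on low values, without the trend, with libraries averaged, and without siControl replicate 2, siControl replicate 3 or siPHF20L1 replicate 3.

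Downstream of pyruvate and lactate, more genes fell than rose. Of 26 genes, 22 were tested, 10 fell, 4 rose and 8 did not pass, with a median log2 difference of -0.16. With the replicate block 14 were lower and 5 higher. Without the block, 24.7% of all genes tested were called lower and 34.0% higher. Among tested genes with a mean of at least 90 FPKM, 33.7% were called lower and 21.3% higher. SLC16A3, which encodes the lactate exporter MCT4, fell to 217 ± 29.01 FPKM in siPHF20L1 libraries, against 349.5 ± 30.02 FPKM in siControl libraries (log2 difference -0.69, limma, adjusted p = 0.000634). SLC16A1, which encodes MCT1, averaged 0.257 FPKM in siPHF20L1 and 0.0833 FPKM in siControl libraries and was not tested. Among genes of the pyruvate dehydrogenase complex, DLAT and PDHB had log2 differences of -1.24 and -1.15 (limma, adjusted p = 1.55e-06 and 2.30e-06). PDHA1, another subunit gene, was at 18.5 ± 0.895 FPKM in siPHF20L1 and 20.0 ± 0.387 FPKM in siControl libraries and did not pass (log2 difference -0.11, limma, adjusted p = 0.152), though it did with the replicate block (limma, adjusted p = 0.0318). PDK1, which encodes a kinase that restrains the complex, fell to 9.14 ± 0.378 FPKM in siPHF20L1 libraries, against 11.9 ± 0.892 FPKM in siControl libraries (log2 difference -0.34, limma, adjusted p = 0.00369). GPT2, which makes alanine from pyruvate, rose to 16.7 ± 1.78 FPKM in siPHF20L1 libraries, against 8.53 ± 0.961 FPKM in siControl libraries (log2 difference 0.90, limma, adjusted p = 0.000107).

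Genes of known regulators of the pathway went both ways. Of 24 genes, 22 were tested, 8 fell, 11 rose and 3 did not pass, with a median log2 difference of 0.12. With the replicate block 9 were lower and 11 higher. HIF1A, which encodes the oxygen-regulated subunit of HIF-1, fell to 166 ± 11.4 FPKM in siPHF20L1 libraries, against 212 ± 10.6 FPKM in siControl libraries (log2 difference -0.35, limma, adjusted p = 0.00208). MYC, which is known to activate LDHA, rose to 79.6 ± 3.49 FPKM in siPHF20L1 libraries, against 61.9 ± 1.92 FPKM in siControl libraries (log2 difference 0.36, limma, adjusted p = 0.000717). MLXIP, which encodes a glucose-sensing factor, rose to 32.2 ± 0.898 FPKM in siPHF20L1 libraries, against 15.6 ± 0.370 FPKM in siControl libraries (log2 difference 1.00, limma, adjusted p = 2.57e-06). PTBP1, whose product favours the M2 form of PKM in splicing, rose to 214 ± 16.3 FPKM in siPHF20L1 libraries, against 152 ± 12 FPKM in siControl libraries (log2 difference 0.49, limma, adjusted p = 0.000841). Of other splicing factor genes in the list, HNRNPA1 rose (log2 difference 0.31, limma, adjusted p = 0.00165). HNRNPA2B1, SRSF3 and RBM4 fell, by -0.32, -0.32 and -0.17 (limma, adjusted p = 0.0240, 0.00178 and 0.0173). EGLN2, a prolyl hydroxylase gene of the HIF system, had a log2 difference of 0.65 (limma, adjusted p = 9.53e-05). The other such genes of the list, EGLN1 and EGLN3, fell, by -0.64 and -0.61 (limma, adjusted p = 3.67e-05 and 0.000209). NFYC, a gene of the CCAAT-binding factor, had a log2 difference of -0.70 (limma, adjusted p = 4.62e-05). The count of higher genes was 7 in place of 11 with median-ratio size factors, and likewise 7 with the libraries numbered 2 and 3 averaged, where 5 in place of 8 were lower.

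Likeness to the mean pattern of the 10 genes was measured over the 6 libraries in 632 other tested genes with a mean of at least 100 FPKM, as the Euclidean distance of log2(FPKM + 1) values less their own mean. The nearest were SNRPC, a splicing gene, at 0.08, the ribosomal protein gene RPL38 at 0.09, the translation factor gene EIF4H at 0.09, ATP5B of the ATP synthase at 0.10 and the GTPase gene RAC2 at 0.11. SNRPC averaged 87.7 ± 2.27 FPKM in siPHF20L1 and 133 ± 7.12 FPKM in siControl libraries. Of the 10 genes themselves, GAPDH and PKM lay nearest to the mean pattern, at 0.07 and 0.08, and LDHA and ENO2 farthest from it, at 0.70 and 0.54.

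The words CAAGAT and TAAGGA were picked by earlier work on these libraries for their association with lower genes in 3′ UTRs. They were looked up in the longest 3′ UTR of each gene, which these cells need not use. It was taken from GENCODE release 29 transcripts matched to the deposited gene entries. At least 1 of the words was found in TPI1, PGK1, PGAM1 and ENO2, 4 of the 10 genes, against 45.9% of 11292 tested genes. A longer 3′ UTR has more room for a word. Those of these 4 genes span 563 to 3466 bases, and those of the other genes 200 bases (LDHB) to 1144 bases (LDHA). Carriers had a median log2 difference of 0.00 and the others 0.09. Since the words were picked in these same libraries, that choice favoured a lower median of carriers, which is no separate support. LDHA, which fell most, holds neither word, and nor do ALDOA, GAPDH, ENO1, PKM and LDHB, which also passed. TPI1 holds CAAGAT 1 time, and PGK1 holds CAAGAT 4 times and TAAGGA 1 time. PGAM1 and ENO2, which did not pass, hold 1 word each. Any part of the words in the falls was not tested. The site of TPI1, the carrier with the largest fall, is shown with the word in capitals.
TPI1: accgtgaggcCAAGATcccctcagaa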

How the data were processed

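Poly-A RNA was sequenced from 6 libraries made with a stranded kit, per the labels' protocols. Bowtie 0.12.2, TopHat2 2.1.1, HTSeq 0.6.0 and the build GRCh37 are listed without role or order, per the submitters' processing notes. The authors deposited 1 FPKM value per gene and library, per the file headers. How FPKM was computed, and whether strand was used, is not given in the sources used here, so genes with antisense partners or near-identical copies are uncertain.

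Genes with at least 1 FPKM in at least 3 libraries were tested with limma 3.58.1 (R 4.3.3) on log2(FPKM + 1), with an intensity trend and no block, two-sided. The pseudocount understates changes of low genes. The script was tested on simulated data. Shares and sums were compared by exact permutation over libraries (SciPy 1.17.1). Beside the 10 genes and PHF20L1, the text names the 3 genes of each list with the largest difference past the threshold. It also names 12 adjoining genes in any case and the 5 nearest in pattern. Paralogs, markers, reference genes and further regulators were picked after their values were seen. Members and lists were chosen with earlier results of these data known. Of 17452 Entrez identifiers, 17419 matched the RefSeq table (GRCh38.p14), which supplied promoter windows for all 10 genes, while no coordinates of GRCh37 are given.

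Whether replicate numbers pair libraries was checked by correlating, over genes, deviations from the group means. The numbers 1, 2 and 3 gave 0.73, 0.44 and 0.42, each above 0.1, and blocked values stand beside results whose call they change. The check mainly sets the number 1 apart, since siPHF20L1 2 with siControl 3 gave 0.49. Alternatives changed the pseudocount, filter, scaling, block, trend or set of libraries.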

Additional observations from a re-analysis of the deposited data

How the results depend on the processing

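Each of the 10 genes kept a negative difference under all 16 alternatives of the fit (160 of 160 values). Of the 10, 8 passed, or 8 to 9 without 1 library, 10 with the replicate block, with median-ratio size factors or from the numbers 2 and 3 alone, and 7 with those numbers averaged, which leaves 2 values per group and drops ALDOA. PGAM1 and ENO2 passed with median-ratio size factors (limma, adjusted p = 0.0440 and 0.0225) and from the numbers 2 and 3 alone (limma, adjusted p = 0.000722 and 0.0263), and PGAM1 without siControl replicate 1 (limma, adjusted p = 0.0195). Over the alternatives the adjusted p of limma was 0.000274 to 0.228 for PGAM1, 0.0129 to 0.382 for ENO2 and 1.16e-05 to 0.0559 for ALDOA, and at most 0.0241 for the other seven. All genes called numbered 6777, 5735 to 6940 without 1 library and 4890 to 8792 over all alternatives, the most with the replicate block. The surrounding lists had 50 genes called, 41 to 52 without 1 library, 67 with the replicate block and 35 with libraries averaged. Without 1 library, the LDHA share differed by -9.23 to -8.06 percentage points, the ENO2 share by 1.83 to 2.59 and the summed FPKM by -3823 to -3387. Taken as 3 same-numbered pairs (replicate block, exact sign flips), these measures had p = 0.25 each, the smallest such pairs allow. The median of all genes was 0.05, and -0.02 with median-ratio size factors. Depth rests on estimated steps, and counting errors cover sampling of fragments only.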

Other observations

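GAPDH often serves to scale other measurements, so common reference genes are given beside it, picked after the values of GAPDH were seen. ACTB was at 3332 ± 111 FPKM in siPHF20L1 and 3672 ± 176 FPKM in siControl libraries and did not pass (log2 difference -0.14, limma, adjusted p = 0.157), though it did with the replicate block (limma, adjusted p = 0.0444). PPIA fell to 229 ± 6.31 FPKM in siPHF20L1 libraries, against 356 ± 21.3 FPKM in siControl libraries (log2 difference -0.63, limma, adjusted p = 5.07e-05), next to -0.54 for GAPDH. TBP fell to 21.8 ± 1.54 FPKM in siPHF20L1 libraries, against 25.5 ± 1.06 FPKM in siControl libraries (log2 difference -0.22, limma, adjusted p = 0.0210). RPLP0, HPRT1, B2M and GUSB had log2 differences of 0.16, -0.13, -0.22 and -0.05, and none passed (limma, adjusted p = 0.237, 0.170, 0.0984 and 0.595). With the replicate block, RPLP0, HPRT1 and B2M passed (limma, adjusted p = 0.00929, 0.0163 and 0.000436).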
